A study of Lactuca sativa with 9 samples.

Results

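64 of the 38910 lettuce genes in the count files had hardly any reads in leaves of ‘Okeechobee’ and were expressed in leaves of 60184. They were chosen on their raw read counts alone. The rule asked for a summed count of at most 3 over the 3 ‘Okeechobee’ libraries, here called silent, and a mean count of at least 100 over the 3 60184 libraries, here called expressed. The 64 genes make up 0.382% of the 16733 genes that reached this mean in 60184. The difference between ‘Okeechobee’ and 60184 is therefore the choice itself and is given as a description, with no test. The ‘Manatee’ libraries took no part in the choice.

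All 3 genotypes are romaine lettuces (Lactuca sativa) that the study ranked by how long the cut heads keep. ‘Okeechobee’ has a long shelf-life (LSL), ‘Manatee’ an intermediate shelf-life (ISL), and 60184 is a breeding line with a short shelf-life (SSL). For RNA, the first fully expanded leaf was taken at maturity. The plants were untreated and stood in a chamber set to 22 °C and 16 h of light a day, and each genotype has 3 replicates. How many plants went into a replicate is not given in the sources used here, so p-values measure the spread between these samples.

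Cultivars of a crop can differ in which genes they carry as well as in how strongly they use them. Families that take part in the recognition of pathogens, such as intracellular NBS-LRR receptors and receptor-like kinases at the cell surface, are known for gains and losses of copies between relatives, and often sit in clusters of similar genes. Reads from every genotype were mapped to the genome of 1 other cultivar, ‘Salinas’. A gene that a genotype lacks, a gene whose sequence differs too far from ‘Salinas’ for reads to map, and a gene that is present but not transcribed in this leaf all give few reads. These cases cannot be told apart from the counts. Only uniquely mapped reads were counted, so a gene with a near-identical copy can also lose reads.

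The contrast that defined the genes was large throughout. Over all 64 genes together, 26 reads were counted in ‘Okeechobee’ and 72993 in 60184. Of the 64 genes, 47 had 0 counts in every ‘Okeechobee’ library, 11 had 1 count in all, 3 had 2 counts and 3 had 3 counts. A count of 0 does not mean absence of the transcript. The ‘Okeechobee’ libraries held 83100912 gene counts in total, and a floor of 3 counts among these corresponds to 0.0355 CPM, the count per 1e6 reads of a library after TMM scaling of its size. Against that floor, the 47 genes at 0 counts were at least 88.4-fold to at least 863-fold lower in ‘Okeechobee’ than in 60184, with a median bound of 198-fold. These bounds, and the intervals given below for genes with 1 to 3 counts, cover counting error only.

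**Figure D1:**
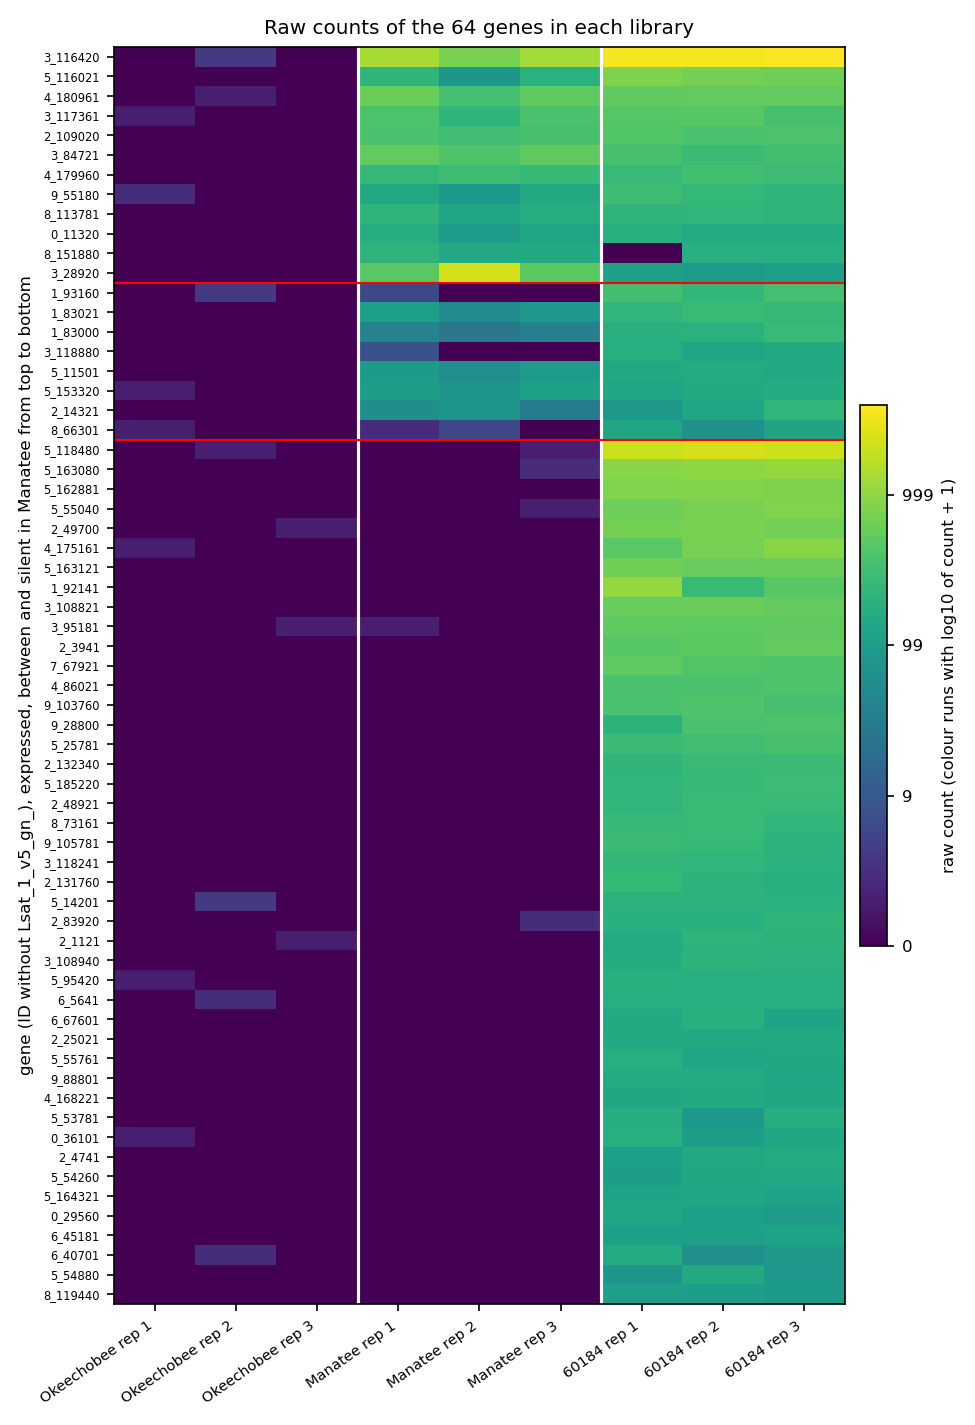
Raw counts of the 64 genes (rows, shortened gene IDs) in the 9 libraries (columns), with colour running with the log10 of the count plus 1. Rows are grouped, from the top, into 12 genes expressed, 8 between and 44 silent in ‘Manatee’, and are ordered within each group by their mean in 60184. The 3 ‘Okeechobee’ columns are at 0 to 3 counts throughout, and the 60184 columns show reads in every row apart from 1 gene in replicate 1.

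In 60184 most of the 64 genes varied little between libraries. Their mean counts ran between 101 and 3643 with a median of 226, against a median of 727 over all 16733 genes expressed in 60184. The coefficient of variation between the 3 60184 libraries had a median of 11.4%, and was under 20% for 48 of the 64 genes. For 3921 genes with 60184 means between 152 and 399 counts, that median was 13.3%. The choice was on the mean, and 55 of the 64 genes were above 100 counts in each of the 3 60184 libraries. The 3 genes with a coefficient of variation over 50% are described below.

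The libraries were of similar depth, with 24108451 to 30219938 gene counts in ‘Okeechobee’, 29927056 to 32299035 in ‘Manatee’ and 30373633 to 32840811 in 60184. Reads outside annotated genes made up 6.41% to 12% of uniquely mapped reads in ‘Okeechobee’, 5.24% to 7.70% in ‘Manatee’ and 6.20% to 6.99% in 60184. The highest correlation of log2 CPM between any pair of libraries was 0.991, so no files were identical. Markers of leaf mesophyll, the 26 described genes for light-harvesting proteins and the small Rubisco subunit, were present in all 9 libraries. Their summed level ranged between 4069 and 8373 CPM of gene counts, without TMM scaling, in ‘Okeechobee’, 4618 and 11258 in ‘Manatee’, and 19508 and 41383 in 60184. None of these 26 genes is among the 64. The part of this difference in the values of the 64 genes was not tested. ‘Manatee’ replicate 2 stood apart from the other ‘Manatee’ libraries in several lists, and had the 4618 of the mesophyll range, with 11258 and 9893 in replicates 1 and 3. In this list 60184 replicate 1 also stood apart, with the 41383 of its range against 19508 and 20062.5 in replicates 2 and 3.

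In ‘Manatee’, which was not used to choose them, most of the 64 genes were silent as well. Of the 64 genes, 44 (68.8%) had a summed count of at most 3 over the 3 ‘Manatee’ libraries, and 39 of these had no read there at all. Another 12 genes (18.8%) had a mean of at least 100 counts in ‘Manatee’, and 8 genes (12.5%) lay between. Among all 16733 genes expressed in 60184, 88 (0.526%) were silent in ‘Manatee’, 812 (4.85%) lay between and 15833 (94.6%) were expressed there. The 44 genes are among these 88. Of the other genes silent in ‘Manatee’ and expressed in 60184, 28 were expressed in ‘Okeechobee’ and 16 lay between. Leaving out ‘Manatee’ replicate 2 gave 45 silent and 13 expressed genes.

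Of the 20 genes that were not silent in ‘Manatee’, 14 were not called different from 60184. These genotypes were compared with edgeR’s quasi-likelihood test over 22062 genes. To be called, a gene needed an adjusted p (Benjamini-Hochberg) below 0.05, a log2 fold change of 2 or more in either direction, and a mean count reaching 100 in 1 genotype. All 64 genes were tested, and 49 were called lower in ‘Manatee’, 1 was called higher and 14 were not called. Over all tested genes, 1.26% were called lower and 1.99% higher. Among the 16732 tested genes expressed in 60184, 1.66% were called lower. The 60184 libraries of this comparison also served to choose the genes. The 49 include all 44 silent genes, and a gene with at most 3 counts in ‘Manatee’ and a mean of at least 100 in 60184 has to differ, so nothing is read from their calls. The other 5 genes called lower are among the 20 that were not silent. The silent genes without any read in ‘Manatee’ were at least 94.8-fold to at least 774-fold lower there than in 60184. In the comparison of ‘Okeechobee’ with 60184, which the choice used, 1.79% of all tested genes were called lower.

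**Figure D2:**
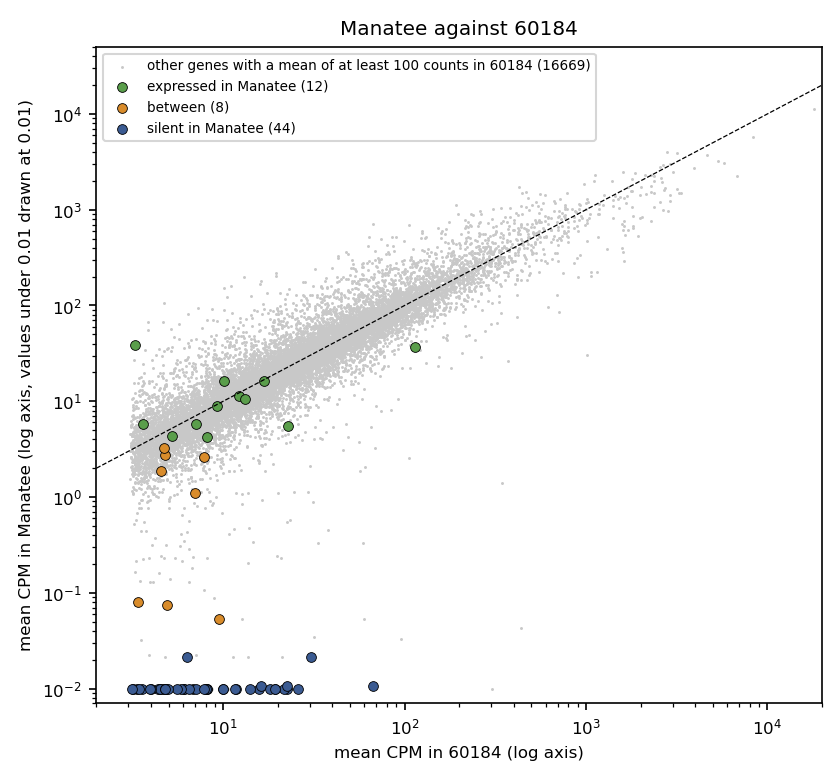
Mean CPM in ‘Manatee’ against mean CPM in 60184 for genes with a mean of at least 100 counts in 60184, on log axes, with ‘Manatee’ values under 0.01 CPM drawn at 0.01 and the line of equal values dashed. Grey points are 16669 other genes, and the 64 genes are coloured by their state in ‘Manatee’. The 44 silent genes lie at or near the bottom edge, while most of the 12 expressed genes lie in the cloud of the other genes near the line.

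The state in ‘Manatee’ was close to all or nothing. Reads were present in all 3 ‘Manatee’ libraries for 17 genes, the lowest of which averaged 33.3 counts. The 3 others that were not silent had 5, 7 and 7 counts in all. No gene therefore lay between means of 2.33 and 33.3 counts. Among the 20 genes that were not silent in ‘Manatee’, 17 were below their 60184 mean and 3 above it, and the median ratio of ‘Manatee’ to 60184 was 0.625. Over all genes expressed in 60184 the median ratio was 0.979. By the adjusted p alone, 9 of the 20 were lower in ‘Manatee’, 2 were higher and 9 did not pass. Of the 11 that passed, 7 did so under each alternative fit and with each library left out, and 4 lost the threshold in at least 1 of them.

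The gene with the highest count in 60184 was a syntaxin-like gene that was expressed in ‘Manatee’ too. Syntaxins are SNARE proteins that drive the fusion of vesicles with target membranes. Lsat_1_v5_gn_3_116420 carries this description from its Arabidopsis thaliana match, while its NCBI annotation reads replication factor C subunit 3, a part of the clamp loader of DNA replication. It had 0, 3 and 0 counts in the ‘Okeechobee’ libraries, 1356, 744 and 1249 counts in ‘Manatee’, and 3534, 3543 and 3851 counts in 60184. No library of 1 genotype overlapped those of another. It averaged 36.6 ± 9.11 CPM in ‘Manatee’ and 114 ± 4.24 CPM in 60184 (SD, n = 3 each). The difference of -1.62 ± 0.19 on the log2 scale (SE, adjusted p = 0.00177 with edgeR) passed the adjusted p but not the fold threshold. The 3 reads in ‘Okeechobee’ put 60184 at 3200-fold the ‘Okeechobee’ level, with a 95% counting interval of 1095 to 15521.

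A senescence gene of the immune pathway was silent in ‘Okeechobee’ and expressed in both other genotypes. SAG101, the senescence-associated carboxylesterase 101, was first described in A. thaliana as a lipase-like protein of ageing leaves and is known there as a partner of EDS1 in signalling from TIR-type immune receptors. Lsat_1_v5_gn_4_180961 had 0, 1 and 0 counts in ‘Okeechobee’, 615, 337 and 523 counts in ‘Manatee’, and 525, 545 and 542 counts in 60184. The ‘Manatee’ and 60184 libraries overlapped, and the log2 fold change between them was -0.05 ± 0.18 (SE, adjusted p = 0.877 with edgeR). This gene sits between 2 others with the same A. thaliana match, neither of them silent. Lsat_1_v5_gn_4_180921 had 150, 330 and 348 counts in ‘Okeechobee’, 2455, 4382 and 2813 in ‘Manatee’, and 3650, 2198 and 2441 in 60184. Lsat_1_v5_gn_4_180981 had 997, 1336 and 1484 counts in ‘Okeechobee’, 2196, 2808 and 2662 in ‘Manatee’, and 4503, 3563 and 3202 in 60184. All 3 described SAG101 genes were thus lower in every ‘Okeechobee’ library than in any library of the other genotypes. Most descriptions come from genes that the study selected on the ‘Okeechobee’ and 60184 libraries. A SAG101 gene that did not differ could therefore be missing here. Among the 6 described genes named after senescence, only the silent one is among the 64. The 6 together did not follow it, with summed levels between 1148 and 1702 CPM in ‘Okeechobee’, 1077 and 2434 in ‘Manatee’, and 518 and 674 in 60184. In ‘Manatee’ against 60184, 1 of the 6 was called higher.

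Receptor-like kinases and proteins, which sense molecules outside the cell, gave 6 of 179 described genes. Larger shares came from shorter lists, such as RNA, DNA and chromatin with 6 of 79 and membrane traffic with 3 of 14. The lists were made by words in the descriptions and chosen with earlier results of these data known. Nothing is therefore read from these shares or from those of the other lists. Among the 6 receptor-like genes, 5 were silent in ‘Manatee’. The exception, the cysteine-rich receptor-like kinase CRK2 (Lsat_1_v5_gn_3_28920), was the 1 gene called higher in ‘Manatee’ than in 60184. Cysteine-rich receptor-like kinases are a large plant family linked to defence and stress responses. CRK2 had 0 counts in each ‘Okeechobee’ library, 479, 2361 and 499 counts in ‘Manatee’, and 114, 95 and 105 counts in 60184. Every ‘Manatee’ library was above every 60184 library, and ‘Manatee’ replicate 2 was far above the other ‘Manatee’ libraries. The log2 fold change was 3.56 ± 0.71 (SE, adjusted p = 0.0165 with edgeR), and 2.27 without ‘Manatee’ replicate 2 (adjusted p = 5.23e-05). Without 60184 replicate 1, 2 or 3 the adjusted p was 0.0695, 0.0675 and 0.0627, so the call was lost each time.

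A gene 3 places from CRK2 with the same A. thaliana match had its highest counts in ‘Okeechobee’. Lsat_1_v5_gn_3_28980 had 217, 256 and 457 counts in ‘Okeechobee’, 13, 6 and 16 in ‘Manatee’, and 8, 9 and 13 in 60184. It was high in ‘Okeechobee’, where CRK2 had no read, while its ‘Manatee’ and 60184 libraries overlapped. It was chosen for mention after its values were seen.

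The other 5 receptor-like genes had no read in ‘Manatee’. The L-type lectin receptor kinase S.1 gene (Lsat_1_v5_gn_5_14201) had 0, 3 and 0 counts in ‘Okeechobee’ and 214, 211 and 198 counts in 60184. A gene for an LRR receptor-like protein (Lsat_1_v5_gn_0_36101, NCBI annotation receptor-like protein EIX2), of a type that binds fungal proteins in tomato, had 1, 0 and 0 counts in ‘Okeechobee’ and 181, 103 and 141 counts in 60184. The remaining 3 lie together on chromosome 5 and are described with their neighbours below. Over the list, 31 of 176 tested genes were called higher in ‘Manatee’ than in 60184 and 13 lower, with a median log2 fold change of 1.0, against -0.01 over all tested genes. The descriptions come mostly from genes that the study selected on the ‘Okeechobee’ and 60184 libraries. This and the other list counts and summed levels are therefore not independent evidence.

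The list of immune receptors and disease resistance proteins gave 4 of its 129 described genes. One is the LRR receptor-like gene Lsat_1_v5_gn_0_36101, and the other 3 are described as NBS-LRR or NB-ARC genes, the intracellular receptors that detect pathogen effectors. The RPM1-like gene Lsat_1_v5_gn_9_103760 had no read in any ‘Okeechobee’ or ‘Manatee’ library, and 368, 410 and 341 counts in 60184. The late blight resistance homolog R1B-16 (Lsat_1_v5_gn_9_28800) likewise had none in those 6 libraries, and 209, 370 and 389 counts in 60184. These 2 genes were at least 328-fold and at least 283-fold lower in ‘Okeechobee’ than in 60184. The TIR-NBS-LRR gene Lsat_1_v5_gn_2_14321, annotated as TMV resistance protein N, had 0 counts in ‘Okeechobee’, 62, 76 and 30 counts in ‘Manatee’, and 82, 129 and 235 counts in 60184. Its ‘Manatee’ libraries were below all its 60184 libraries, but the log2 fold change of -1.27 ± 0.47 did not pass (SE, adjusted p = 0.0973 with edgeR). In this list, 22 of 122 tested genes were called higher in ‘Manatee’ than in 60184 and 11 lower, with a median log2 fold change of 0.85. The summed level of the 129 genes ranged between 4103 and 4548 CPM in ‘Okeechobee’, 2110 and 3860 in ‘Manatee’, and 1262 and 1432 in 60184. The sum was highest in ‘Okeechobee’. Most descriptions come from genes that the study selected on the ‘Okeechobee’ and 60184 libraries, so nothing is read from this order. In ‘Okeechobee’ the 4 genes had 1 read in all.

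Genes of RNA, DNA and chromatin gave 6 of 79 described genes, 5 of them silent in ‘Manatee’. A chromatin remodeling gene (Lsat_1_v5_gn_5_163080) matches DDM1 of A. thaliana, the helicase that keeps transposons methylated and silent, although its NCBI annotation reads pumilio homolog 2, an RNA-binding protein. It had 0 counts in ‘Okeechobee’, 0, 0 and 2 counts in ‘Manatee’, and 909, 959 and 1080 counts in 60184. Its bound of at least 863-fold was the highest among the genes at 0 counts in ‘Okeechobee’. Both described TUDOR-SN2 genes, which encode RNA-binding nucleases of stress granules, were among the 64. Lsat_1_v5_gn_5_25781 had no read in any ‘Okeechobee’ or ‘Manatee’ library and 284, 316 and 360 counts in 60184. Lsat_1_v5_gn_5_185220 likewise had no read in those 6 libraries and 236, 258 and 292 counts in 60184. The 2 genes lie far apart on chromosome 5, and no other described gene shares their A. thaliana match.

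The single gene of this list that was not silent in ‘Manatee’ was annotated as a transposase of the TNP1/En/Spm type, an enzyme that moves DNA transposons. Lsat_1_v5_gn_3_84721 had 0 counts in ‘Okeechobee’, 550, 408 and 529 counts in ‘Manatee’, and 359, 285 and 324 counts in 60184. It was higher in every ‘Manatee’ library than in any 60184 library, with a log2 fold change of 0.71 ± 0.16 (SE, adjusted p = 0.0218 with edgeR), short of the fold threshold. The adjusted p rose to between 0.0565 and 0.0895 without ‘Manatee’ replicate 1 or 3 or without 60184 replicate 2 or 3. An RNA recognition motif gene (Lsat_1_v5_gn_2_1121) had 0, 0 and 1 counts in ‘Okeechobee’, 0 in ‘Manatee’, and 162, 219 and 209 counts in 60184. The lettuce description of Lsat_1_v5_gn_6_45181 names HUS1, a part of the clamp that signals DNA damage. Its A. thaliana match has no definition in the study’s tables, and its NCBI annotation reads uncharacterized protein. This HUS1-described gene had no read in ‘Okeechobee’ or ‘Manatee’ and 105, 105 and 122 counts in 60184. In the list, 4 of 78 tested genes were called higher in ‘Manatee’ than in 60184 and 9 lower, with a median log2 fold change of -0.18.

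Stress proteins and chaperones gave 3 of 59 described genes, none of which had a read in ‘Manatee’. The heat shock cognate gene HSC70-1 (Lsat_1_v5_gn_1_92141), a chaperone of protein folding, had 0 counts in ‘Okeechobee’ and 1067, 270 and 463 counts in 60184. It varied more than nearly all others, with a coefficient of variation of 75% in 60184. The second described HSC70-1 gene, Lsat_1_v5_gn_8_78141, was plentiful throughout, with 8055, 6454 and 5934 counts in ‘Okeechobee’, 5826, 6486 and 6163 in ‘Manatee’, and 3307, 2945 and 4047 in 60184. The KIN2-like late embryogenesis abundant gene (Lsat_1_v5_gn_4_175161), of a family that protects cells during drying and cold, had 1, 0 and 0 counts in ‘Okeechobee’ and 475, 726 and 910 counts in 60184. A DnaJ-like gene (Lsat_1_v5_gn_5_162881), whose NCBI annotation is SSUH2 homolog, had 0 counts in ‘Okeechobee’ and 819, 847 and 800 counts in 60184. In the list, 1 of 59 tested genes was called higher in ‘Manatee’ than in 60184 and 6 lower, with a median log2 fold change of 0.49.

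In metabolism, the silent genes were scattered over unrelated steps. KAS I (Lsat_1_v5_gn_1_93160), an enzyme that lengthens fatty acids in plastids, had 0, 3 and 0 counts in ‘Okeechobee’, 5, 0 and 0 counts in ‘Manatee’, and 326, 242 and 339 counts in 60184. Cytosolic pyruvate kinase 1 (Lsat_1_v5_gn_8_66301), the last step of glycolysis, had 1, 0 and 0 counts in ‘Okeechobee’, 2, 5 and 0 counts in ‘Manatee’, and 133, 66 and 125 counts in 60184. Galactokinase (Lsat_1_v5_gn_5_163121), which feeds galactose into sugar metabolism, had no read in ‘Okeechobee’ or ‘Manatee’ and 661, 570 and 611 counts in 60184. None of the 3 had more than 5 counts in a library of ‘Okeechobee’ or ‘Manatee’. In the list of primary metabolism they belong to, 4 of 24 tested genes were called lower in ‘Manatee’ than in 60184, and these 3 are among them. By the adjusted p alone, 11 were lower in ‘Manatee’ and 6 higher.

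Specialised metabolism, which makes defence compounds and pigments, gave 4 of 110 described genes, with galactokinase among them because its A. thaliana description also names mevalonate kinases. A flavonol 3-O-glucosyltransferase gene (Lsat_1_v5_gn_3_118880), of the enzymes that attach glucose to flavonoids, had 0 counts in ‘Okeechobee’, 7, 0 and 0 counts in ‘Manatee’, and 179, 136 and 155 counts in 60184. The next gene in the order of IDs, Lsat_1_v5_gn_3_118940, has the same A. thaliana match. It had 204, 267 and 355 counts in ‘Okeechobee’, 3237, 1552 and 3037 in ‘Manatee’, and 1403, 910 and 1040 in 60184. A gene annotated as 8-hydroxygeraniol dehydrogenase (Lsat_1_v5_gn_7_67921), of the cinnamyl alcohol dehydrogenase family, had no read in ‘Okeechobee’ or ‘Manatee’ and 519, 418 and 410 counts in 60184. It is the only one of the 64 genes on chromosome 7. A chalcone isomerase-like gene (Lsat_1_v5_gn_6_40701), of a family of flavonoid synthesis, had 0, 2 and 0 counts in ‘Okeechobee’, 0 in ‘Manatee’, and 163, 66 and 88 counts in 60184, a coefficient of variation of 54.1% there. In the list, 18 of 108 tested genes were called higher in ‘Manatee’ than in 60184 and 13 lower.

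Membrane traffic gave 3 of 14 described genes, the syntaxin-like gene among them. A gene with an endosomal targeting BRO1-like domain (Lsat_1_v5_gn_0_11320) had 0 counts in ‘Okeechobee’, 174, 96 and 128 counts in ‘Manatee’, and 177, 161 and 162 counts in 60184. Its ‘Manatee’ and 60184 libraries overlapped, with a log2 fold change of -0.25 ± 0.23 (SE, adjusted p = 0.479 with edgeR). A gene described both as an ArfGap, a regulator of vesicle budding, and as an HCO3- transporter (Lsat_1_v5_gn_3_118241) had no read in ‘Okeechobee’ or ‘Manatee’ and 244, 234 and 198 counts in 60184. In ‘Manatee’ against 60184, 1 of the 14 genes was called higher and 3 lower.

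Protein modification gave 2 of 160 described genes, both silent in ‘Manatee’. A SUMO protease gene (Lsat_1_v5_gn_3_95181), of the enzymes that remove the small modifier SUMO, had 0, 0 and 1 counts in ‘Okeechobee’, 1, 0 and 0 counts in ‘Manatee’, and 523, 504 and 520 counts in 60184. The descriptions of Lsat_1_v5_gn_5_95420 name both DDA1, a part of a ubiquitin ligase, and a Ufm1-specific protease. It had 1, 0 and 0 counts in ‘Okeechobee’, 0 in ‘Manatee’, and 190, 188 and 187 counts in 60184. Here 14 of 158 tested genes of the list were called higher in ‘Manatee’ than in 60184 and 9 lower. The cell wall list held 1 of the 64 genes in 33, CESA8 (Lsat_1_v5_gn_8_73161), a cellulose synthase subunit of secondary walls in xylem. CESA8 had no read in ‘Okeechobee’ or ‘Manatee’ and 258, 272 and 236 counts in 60184. In this list, 10 of 33 genes were called lower in ‘Manatee’ than in 60184 and 4 higher. CESA8 is also a marker of vascular tissue. The list of 12 described genes with vascular words also holds the malectin kinase gene Lsat_1_v5_gn_5_54260, another of the 64. A phloem protein 2 domain in its description drew it in, as it did kinase genes outside the 64. The 12 together ranged between 124 and 166 CPM in ‘Okeechobee’, 160 and 186 in ‘Manatee’, and 143 and 149 in 60184. This sum is therefore not a measure of vascular tissue.

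A further 5 described genes fell in none of these lists. An LRR gene (Lsat_1_v5_gn_5_116021) was the 1 gene that was both expressed in ‘Manatee’ and called lower there. It had 0 counts in ‘Okeechobee’, 224, 80 and 198 counts in ‘Manatee’, and 806, 710 and 663 counts in 60184, with no overlap between genotypes and a log2 fold change between ‘Manatee’ and 60184 of -2.05 ± 0.32 (SE, adjusted p = 0.00705 with edgeR). The call was lost on the fold threshold without ‘Manatee’ replicate 2, at -1.74, and without 60184 replicate 1, at -1.94. A LisH domain gene (Lsat_1_v5_gn_1_83000) had 0 counts in ‘Okeechobee’, 38, 26 and 36 counts in ‘Manatee’, and 189, 207 and 277 counts in 60184. It was called lower in ‘Manatee’ at a log2 fold change of -2.65 ± 0.24 (SE, adjusted p = 0.000641 with edgeR). A WD40 repeat gene (Lsat_1_v5_gn_3_108821) had no read in ‘Okeechobee’ or ‘Manatee’ and 588, 592 and 550 counts in 60184. A gene described as a folic acid-binding transferase (Lsat_1_v5_gn_2_3941) had none in those 6 libraries either, and 466, 492 and 551 counts in 60184. The last is the kinase gene Lsat_1_v5_gn_5_55040, described with the run on chromosome 5.

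The remaining 28 genes have no description in the copies of the study’s tables, and 22 of them are listed there without words. The study lists genes expressed only in 60184 by a threshold on expression, so a listed gene can have reads in ‘Manatee’. In that list, described genes were fewer among the 64 than among the rest. Of the 52 listed genes that belong to the 64, 57.7% have a description, against 80.5% of the 554 others. None of the 64 genes that were expressed in ‘Manatee’ is in that list, so these shares leave such genes out. The highest of the 28 undescribed genes, Lsat_1_v5_gn_5_118480, was second among the 64. It had 0, 1 and 0 counts in ‘Okeechobee’, 0, 0 and 1 counts in ‘Manatee’, and 2027, 2308 and 2088 counts in 60184. In contrast, Lsat_1_v5_gn_8_151880 had 0 counts in ‘Okeechobee’, 217, 149 and 159 counts in ‘Manatee’, and 0, 182 and 177 counts in 60184. It was at 0 in 1 60184 library and well above 100 counts in the other 2, the highest coefficient of variation of the 64 genes at 86.7%. Few genes behaved this way, and each library had 0 to 2 genes at 0 with at least 50 counts in both other libraries of its genotype. Among the 36 described genes, 25 were silent, 5 between and 6 expressed in ‘Manatee’.

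‘Okeechobee’ was also compared with ‘Manatee’ by the same test over 21937 genes. Of the 64 genes, 17 had enough reads to be tested, all of them through their ‘Manatee’ counts. Of these, 12 were called lower in ‘Okeechobee’ and 5 did not reach the mean of 100 counts, where 0.807% of all tested genes were called lower. A gene at 0 to 3 counts in 1 genotype that passes such a filter has to differ, so nothing is read from this count. The 3 comparisons share libraries, and their values for the 64 genes are not independent.

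**Figure D3:**
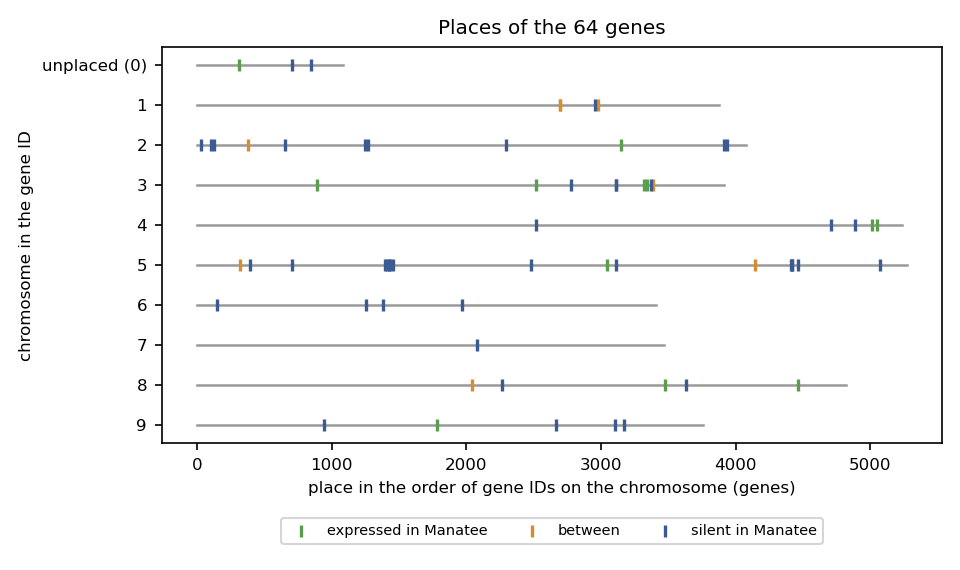
Places of the 64 genes in the order of gene IDs along each chromosome (grey lines, whose length is the number of genes), coloured by their state in ‘Manatee’. Chromosome 5 holds 17 of the genes and chromosome 7 holds 1, and several marks lie so close together that they overlap.

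The genes lay on all 9 chromosomes, with 1 to 17 genes on each. The ID of a lettuce gene gives its chromosome and a number that rises along it, so the IDs put the genes in order without giving base positions, which were not analysed here. Chromosome 5 held 17 of the 64 genes, or 0.732% of its genes expressed in 60184, chromosome 2 held 11 (0.610%) and chromosome 3 held 9 (0.571%). The other placed chromosomes held 1 to 5 genes each, down to 0.0660% on chromosome 7. 3 genes are unplaced, with 0 as their chromosome.

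Some of the genes lay near one another. Another of the 64 genes lay within 10 places of 11 genes (17.2%), counting every gene in the files. Of the 16669 other genes expressed in 60184, 466 (2.80%) had one of the 64 within 10 places. With gaps of up to 30 places allowed, 24 of the genes formed 9 runs, and in 7 of these all genes of a run had the same state in ‘Manatee’. Of the 64 genes, 68.8% were silent in ‘Manatee’, and most runs are pairs. Equal states are thus common by that share alone, and nothing is read from this count. The converse set, 58 genes silent in 60184 and expressed in ‘Okeechobee’ by the same limits, was also placed. One of these lay within 10 places of 2 of the 64 genes (3.13%), against 2.52% of the other genes expressed in 60184.

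Genes between and beside the 64 genes were mostly expressed at ordinary levels. The 5 places on each side held 244 other genes expressed in 60184, and their ratio of mean CPM in ‘Okeechobee’ to 60184 had a median of 1.0, against 0.976 over all other such genes. In ‘Manatee’ the medians were 0.979 and 0.981. A ratio under 0.1 in ‘Okeechobee’ was found for 3 of the 244 (1.23%), against 0.552% of all others, and a ratio under 0.1 in ‘Manatee’ for 5 (2.05%), against 0.678%.

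The run with the most of the 64 genes held 5 on chromosome 5, 4 of them kinase genes, all silent in ‘Manatee’. It spans 55 places. The first gene (Lsat_1_v5_gn_5_53781), an LRR receptor-like kinase by its A. thaliana match and importin-11 by its NCBI annotation, had 173, 81 and 176 counts in 60184. It was followed by 2 malectin receptor-like kinase genes, of the family of the growth and pollination receptor FERONIA. Lsat_1_v5_gn_5_54260 had 102, 140 and 147 counts in 60184, and Lsat_1_v5_gn_5_54880 had 76, 151 and 81. The PBL27-like kinase gene Lsat_1_v5_gn_5_55040, named after a cytoplasmic kinase that relays chitin signals in A. thaliana, had 0 counts in ‘Okeechobee’, 0, 0 and 1 counts in ‘Manatee’, and 642, 716 and 816 counts in 60184. The fifth has no description. None of the 5 had a read in ‘Okeechobee’.

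3 more genes of this run had few reads in both ‘Okeechobee’ and ‘Manatee’ without meeting the rule. A PBL26-like kinase gene (Lsat_1_v5_gn_5_54180) had 0, 6 and 0 counts in ‘Okeechobee’, 0 in ‘Manatee’, and 212, 185 and 215 counts in 60184. Another malectin receptor-like kinase gene (Lsat_1_v5_gn_5_55541), with the same A. thaliana match as Lsat_1_v5_gn_5_54880, had 12, 4 and 12 counts in ‘Okeechobee’, 9, 7 and 5 in ‘Manatee’, and 609, 693 and 709 in 60184. The gene after it, Lsat_1_v5_gn_5_55560, described by a WD40 match and a NIMA-related kinase, had 15, 15 and 4 counts in ‘Okeechobee’, 11, 15 and 4 in ‘Manatee’, and 448, 463 and 489 in 60184. The other 8 expressed genes of the run were not low, and a malectin kinase gene among them (Lsat_1_v5_gn_5_54000) had 730, 592 and 507 counts in ‘Okeechobee’, 277, 273 and 206 in ‘Manatee’, and 129, 164 and 226 in 60184. Kinase genes that were silent and kinase genes that were high in ‘Okeechobee’ thus lay within the same 55 places.

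**Figure D4:**
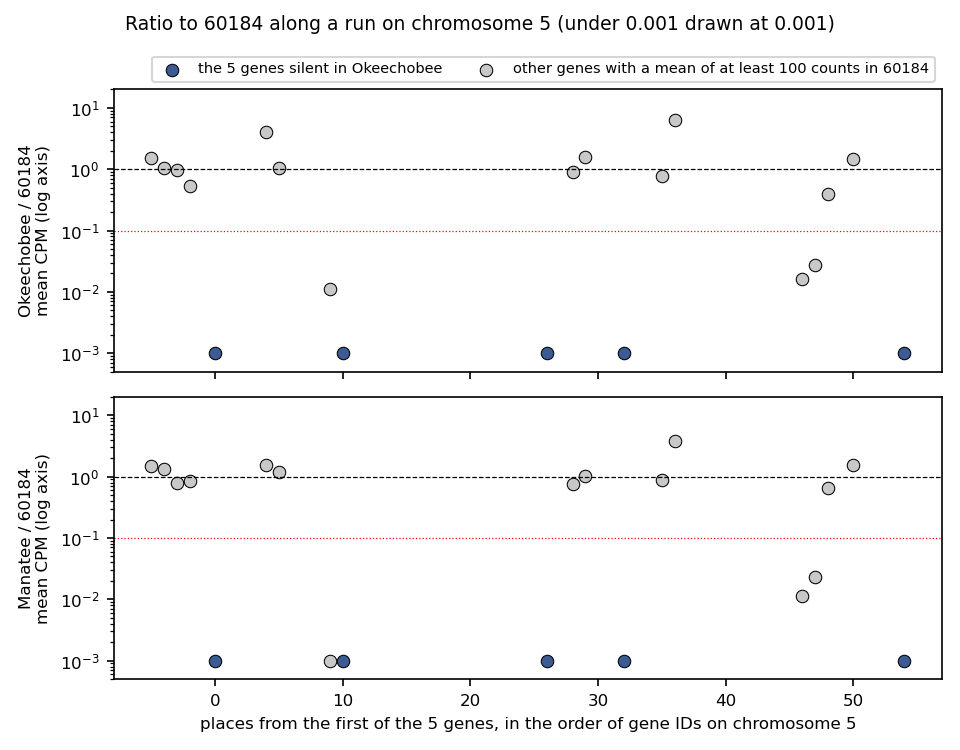
Ratio of mean CPM to that in 60184, on a log axis, for ‘Okeechobee’ (top) and ‘Manatee’ (bottom), by place in the gene order from Lsat_1_v5_gn_5_53781 on. Blue points are the 5 genes silent in ‘Okeechobee’, grey points are other genes with a mean of at least 100 counts in 60184, the dashed line marks equal levels and the dotted line a ratio of 0.1, with ratios under 0.001 drawn at 0.001. In both genotypes 3 grey points lie below 0.1 and the other grey points lie above the dotted line.

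A second run on chromosome 5 joined the DnaJ-like gene, the chromatin remodeling gene and galactokinase within 10 places. All 3 were silent in both ‘Okeechobee’ and ‘Manatee’ and averaged 822, 983 and 614 counts in 60184. The 3 other expressed genes among them had ‘Okeechobee’ to 60184 ratios of 1.03, 1.21 and 0.847 and ‘Manatee’ to 60184 ratios of 0.821, 1.14 and 0.756. The silent genes were thus interleaved with genes at ordinary levels. The WD40 gene on chromosome 3 had an undescribed silent gene 2 places away, and the LisH gene lay next to an undescribed gene, which had reads in ‘Manatee’ as well.

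On chromosome 3, a run of 4 genes was mixed in ‘Manatee’. The syntaxin-like gene and an undescribed gene were expressed there, the ArfGap gene was silent and the glucosyltransferase gene had 7 reads in all. Among the 19 other expressed genes of the run, 1 had an ‘Okeechobee’ to 60184 ratio under 0.1. This was a cystatin gene, of the inhibitors of cysteine proteases (Lsat_1_v5_gn_3_117001), with 3, 1 and 0 counts in ‘Okeechobee’, 34, 65 and 37 in ‘Manatee’, and 91, 93 and 141 in 60184.

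At the start of chromosome 2, the RNA recognition motif gene had neighbours with hardly any reads in ‘Manatee’ alone. The gene next to it (Lsat_1_v5_gn_2_1140), described as a Fanconi anemia group J helicase, had 288, 210 and 217 counts in ‘Okeechobee’, 9, 1 and 2 in ‘Manatee’, and 197, 188 and 236 in 60184. A gene for subunit H of the V-type proton ATPase (Lsat_1_v5_gn_2_1040), 3 places away, had 232, 202 and 185 counts in ‘Okeechobee’, 0, 0 and 5 in ‘Manatee’, and 428, 409 and 377 in 60184. Beside the HUS1-described gene lay an EIX2-like receptor gene (Lsat_1_v5_gn_6_45160) with 34, 17 and 49 counts in ‘Okeechobee’, 40, 25 and 20 in ‘Manatee’, and 587, 480 and 500 in 60184. It was low in both ‘Okeechobee’ and ‘Manatee’ without being silent.

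Described relatives of the silent genes covered a wide range of counts. Of the 35 genes with an A. thaliana match, 13 share it with at least 1 other described lettuce gene. The LRR gene Lsat_1_v5_gn_0_36101 shares its match with several, of which Lsat_1_v5_gn_6_42540, named here as it has the most counts, had 3135, 4070 and 3171 counts in ‘Okeechobee’, 1232, 731 and 1066 in ‘Manatee’, and 1313, 1177 and 1256 in 60184. A match is not a measure of how alike 2 sequences are, and no sequence was analysed here, so it is not known which of these genes could share reads. Several relatives were lower in ‘Okeechobee’ than in 60184, and others were higher. Only described genes could be found as relatives, and the study selected most of these on the ‘Okeechobee’ and 60184 libraries. Relatives that did not differ can therefore be missing, and nothing is read from this split. Among the lower ones, Lsat_1_v5_gn_5_87481 shares its match with the first gene of the kinase run. It had 3, 2 and 0 counts in ‘Okeechobee’, 0 in ‘Manatee’, and 783, 673 and 652 in 60184.

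The limits of the rule cut through genes of the same kind. Just outside the limit of 3 counts were 6 genes with a summed count of 4, the cystatin gene above and a TIR-NBS-LRR gene (Lsat_1_v5_gn_1_102140) with 0, 0 and 4 counts in ‘Okeechobee’, 572, 789 and 599 in ‘Manatee’, and 385, 398 and 540 in 60184 among them. Just inside it, with 3 counts each, were the syntaxin-like gene, KAS I and the lectin receptor kinase gene. In all, 19 genes expressed in 60184 had summed counts of 4 to 10 in ‘Okeechobee’. At the limit on the mean, an undescribed gene at 100.7 counts and the malectin kinase gene Lsat_1_v5_gn_5_54880 at 102.7 counts in 60184 were just inside. A ubiquitin-specific protease gene (Lsat_1_v5_gn_0_37521) at 99.7 and an F-box gene (Lsat_1_v5_gn_2_11181) at 97.0 counts were just outside.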

How the data were processed

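Per the labels and the study’s methods, the authors sequenced poly(A) RNA in paired reads. Cutadapt served for trimming, STAR for mapping to the v5 L. sativa genome, and HTSeq, SAMtools and in-house scripts for PCR duplicates and for counting uniquely mapped reads, which the authors compared with DESeq2. The deposited values are raw read counts per gene and library, without normalization. Summary lines of each file were left out of the gene counts. Whether counting used the strand is not given in the sources used here.

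The 64 genes and the lists were chosen with earlier results of these data known. Tables were handled in pandas 2.3.3 under Python 3.11.15. Each comparison was fitted on its 6 libraries with edgeR 4.0.16 in R 4.3.3, using TMM factors and robust quasi-likelihood F tests. Genes entered a fit with 10 or more counts in 3 or more libraries, and p was adjusted over all of them, never over the 64 genes alone. The fit was tested on simulated data. Lists were made by words in the gene descriptions of the study’s tables, whose values were not used. Figures were drawn with matplotlib 3.10.9. The rule for named genes took, among the described ones, the 12 with the highest mean in 60184, those expressed in ‘Manatee’, those with another of the 64 genes within 10 places, up to 4 of each list, and those nearest the limits. The second TUDOR-SN2 gene, the HUS1-described gene and the genes outside the 64 other than those at the limits were named after their values were seen.

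Alternatives were DESeq2 1.42.0 as the test, its size factors within edgeR, upper quartile or no scaling factors, no filter or one of 1 CPM, a single model of all 9 libraries, the replicate number as a block, other limits of the rule, and each library left out in turn. Coordinates, sequences, leaf anatomy and storage trials were not analysed here.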

Additional observations from a re-analysis of the deposited data

How the results depend on the processing

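The number of genes that met the rule depended most on the mean asked of 60184. It was 104 at a mean of 50 and 37 at a mean of 200. Limits of 0 and 10 counts in ‘Okeechobee’ gave 47 and 83 genes, and leaving out 1 library gave 63 to 73. In ‘Manatee’, 7 genes were expressed at a mean of 200. Leaving out 1 ‘Manatee’ library gave 44 to 46 silent and 12 to 13 expressed genes.

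The count called lower in ‘Manatee’ than in 60184 was 49 in each fit with all libraries and these thresholds, 53 without the fold threshold, and was 45 to 49 with 1 library left out. Of the named genes, the chalcone isomerase-like, pyruvate kinase and malectin kinase (Lsat_1_v5_gn_5_54880) genes fell under the mean of 100 counts without the 60184 library in which they were highest. The count called lower in ‘Okeechobee’ than in ‘Manatee’ was 12 to 13. The deviations of samples with the same replicate number correlated at -0.36, -0.14 and 0.37 for ‘Okeechobee’ and ‘Manatee’, at 0.09, 0.11 and -0.15 for ‘Okeechobee’ and 60184, and at -0.01, -0.25 and -0.14 for ‘Manatee’ and 60184. In no comparison were all 3 over 0.1, so the numbers were not taken to pair the samples. With the replicate number as a block the counts were 49 and 12 again. Among the genes not silent in ‘Manatee’, 2 without a description lost the adjusted p with most libraries left out, and the TIR-NBS-LRR gene passed with DESeq2 (0.0388) and without ‘Manatee’ replicate 2 (0.0475).

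Genes with another of the 64 nearby numbered 2, 6 and 19 within 1, 5 and 20 places, and 11 to 14 within 10 places with 1 library left out. The share of neighbours with a low ratio in ‘Okeechobee’ was 3.09% with 2 genes on each side, 2.54% at a mean of 50 in 60184 and 5.74% for a ratio under 0.25, and 1.22% to 1.64% with 1 library left out.

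Depth limits the genes at 0 counts to bounds, and 3 libraries of each genotype limit what the tests can show for genes that differ little between ‘Manatee’ and 60184.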
